A study of Mus musculus with 6 samples.

Results

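Collagens are secreted or membrane proteins whose chains wind around each other in a rope-like helix of repeated glycine-containing triplets, and they form most of the dry matter of the dermis. Fibrillar collagens assemble into the cables that give skin its tensile strength. Type IV collagens form the sheet-like network of basement membranes, under the epidermis and around vessels, hair follicles, fat cells and nerves. Other classes decorate fibrils, form beaded microfibrils, anchor the basement membrane to the dermis, or span the membrane of cells such as keratinocytes.

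The collagen genes were taken from the array by name alone, as every non-control probe whose gene name was Col, 1 or 2 digits, the letter a, and 1 or 2 digits. The rule found 43 genes, measured by 86 probes, among 27616 genes and 41174 probes in all. Of the 43, 11 encode fibrillar chains, 6 encode type IV chains of basement membranes, and 26 belong to other classes. No measured value entered the rule, but collagens were singled out with results of these arrays already known, so the counts below describe the family and are not independent evidence about it.

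RNA came from the back skin, taken whole, of female mice of the C57BL/6J strain at 6 to 8 weeks of age. One group received 62.5 mg per day of a cream with 5% imiquimod, which activates Tlr7 and gives psoriasis-like inflammation, on the shaved back for 7 days. The other received as much vehicle cream. There were 3 samples a group, and every sample was hybridised to its own Agilent array in a single colour. The labels do not say whether the samples of a group came from separate animals, so the p-values measure a spread between samples that may be technical.

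The treatment of each array was not recorded in 1 way. In 6 of 6 cases the name of the scanner file carried the opposite treatment to the sample it was filed under. The deposited value table, with its columns read by sample title, went with the file names: each scanner file matched the column of the same treatment and number in 6 of 6 cases. The Spearman correlation with that column was 1.0 to rounding over 24253 probes, against 0.943 to 0.953 with the column of the sample it was filed under. Arrays are grouped here by file name and value table. If the filing were right instead, every difference given here would keep its size and change its sign. In this grouping, all 8 tested genes of a list known to rise in imiquimod-treated skin, S100a8, S100a9 and Lcn2 among them, were higher in the imiquimod arrays, with a median difference of 4.97, beside 13.1% of all genes called higher. Like the other lists, this one was chosen with earlier results of these data known, so its direction is not independent evidence for the grouping. With the slide as a block, described below, the difference rests on imiquimod array 1 against the 3 vehicle arrays. The calls of S100a9, Krt16 and Il1b were then lost (adjusted p = 0.0744, 0.0721 and 0.0990). That of Il1b was also lost without any 1 array except vehicle array 2.

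Values are log2 processed signals relative to the 75th percentile of their array, so that a value of 0 lies at that percentile and 1 unit is a doubling. A difference is the imiquimod mean minus the vehicle mean, with its standard error (SE) from limma, and a gene passed at a Benjamini-Hochberg adjusted p under 0.05 over 17928 genes. Levels of different genes come from different probes and are not compared with each other.

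A few probe sequences show the feature by which the family is recognised. In a collagen reading frame glycine codons recur at a fixed interval of 3 codons and each begins with gg, so gg recurs every 9 bases. At least 6 such gg in step were found in 3 of 41174 probes, and all 3 belong to fibrillar collagens, while no probe of another gene had more than 4. The 60 bases of each are printed 5′ to 3′, with the gg in step in capitals.
Col5a1: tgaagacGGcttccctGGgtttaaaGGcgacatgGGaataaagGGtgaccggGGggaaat
Col5a3: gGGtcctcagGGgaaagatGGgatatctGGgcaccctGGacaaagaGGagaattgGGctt
Col11a2: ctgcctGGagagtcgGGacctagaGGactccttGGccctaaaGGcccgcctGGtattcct
The array files place them in mm9 at chr2:27842243-27844666 on the plus strand, chr9:20590066-20590795 on the minus strand and chr17:34189287-34189453 on the plus strand. These intervals are longer than the probes. The Col11a2 probe shown was well above background on 0 arrays and gave no value. No exon annotation of that build was used here.

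Of the 43 collagen genes, 35 had a probe detected, that is, well above background, on 3 or more of the 6 arrays, and were tested. The 8 that were not are all of other classes: Col6a5, Col6a6, Col9a1, Col9a3, Col10a1, Col19a1, Col25a1 and Col28a1. Among the 35, 15 rose in imiquimod skin, 3 fell and 17 did not pass. That is 51.4% called, beside 23.5% of all genes tested, and 42.9% called higher, beside 13.1%. Called lower were 8.57%, beside 10.5% of all genes. The filter disregards groups but admits genes through the group in which they are bright, and with no filter 11 of the 43 rose and 3 fell, beside 10.5% of all genes called in either direction. Without overlap between the groups, 20 collagens lay higher and 3 lower, beside 25.8% and 20.8% of all genes (46.6% in either direction). The median difference of all 17928 genes was 0.022.

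**Figure D1:**
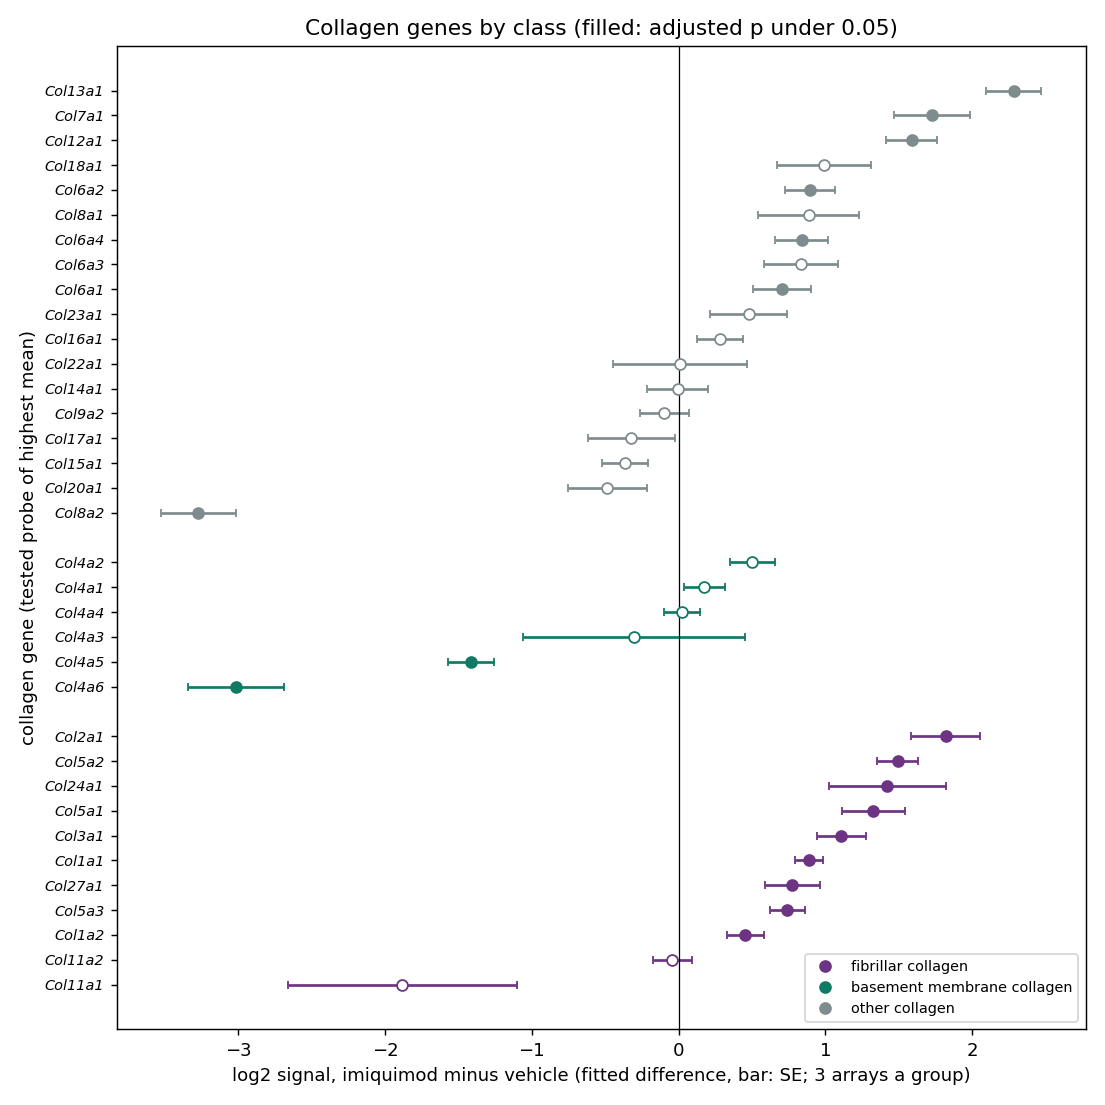
Fitted difference in log2 signal, imiquimod minus vehicle, for the 35 tested collagen genes by class, with bars of 1 SE and 3 arrays a group; filled points passed at an adjusted p under 0.05. Of the fibrillar genes 9 of 11 are filled and to the right of 0, while the filled points to the left of 0 are Col4a5, Col4a6 and Col8a2.

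The fibrillar collagens rose together, with 2 exceptions. Of 11 genes, all tested, 9 rose, 0 fell and 2 did not pass in limma, with a median difference of 0.89. The exceptions were Col11a1 and Col11a2, the minor fibrillar chains best known from cartilage. Beside these counts, 13.1% of all genes were called higher. Without 1 array at a time 6 to 8 of the fibrillar genes rose, and with slide as a block 3 did. With that block 543 of all genes were called higher, instead of 2341.

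Col1a1 and Col1a2 encode the chains of type I collagen, the main collagen of dermal fibres. The log2 signal of Col1a1 was 7.26, 7.28 and 7.28 in imiquimod arrays 1 to 3 and 6.45, 6.33 and 6.37 in vehicle arrays 1 to 3. The imiquimod arrays lay close together and above all vehicle arrays, with a 1.85-fold higher mean (difference 0.89, SE 0.095, adjusted p = 0.00364). Its other 2 probes differed by 1.12 and 1.21. Col1a2 was at 8.62, 8.64 and 8.80 against 8.25, 8.07 and 8.38, a 1.37-fold rise without overlap (difference 0.45, SE 0.13, adjusted p = 0.0484). The Col1a2 call was marginal: quantile normalization put its difference at 0.11 (adjusted p = 0.608) and the value table at 0.12 (adjusted p = 0.577). It was also lost without any 1 array except vehicle array 3, at differences of 0.37 to 0.49, and kept without that array (0.53, adjusted p = 0.0389). A second Col1a2 probe, much dimmer, differed by 1.49 (SE 0.28). The probes of Col1a1 and Col1a2 used for these values lie in mm9 at chr11:94813075-94813134 and chr6:4490619-4490678, both on the plus strand.

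Col3a1 encodes type III collagen, which is laid down with type I in thin fibrils and is abundant in young and healing skin. It stood at 7.74, 7.58 and 7.62 under imiquimod and at 6.53, 6.25 and 6.83 under vehicle. All imiquimod arrays were higher, by 2.16-fold on average (difference 1.11, SE 0.17, adjusted p = 0.00905), and its 3 probes ranged from 1.11 to 1.47. The probe used lies at chr1:45405589-45405648 on the plus strand of mm9.

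Type V collagen is buried inside type I fibrils and limits their diameter. Each of its 3 genes rose. Col5a2 was at 3.37, 3.35 and 3.54 under imiquimod against 2.04, 1.70 and 2.05, a 2.82-fold rise (difference 1.49, SE 0.14, adjusted p = 0.00266). Col5a1 was at 4.17, 3.96 and 4.19 against 2.91, 2.33 and 3.09, a 2.51-fold rise (difference 1.33, SE 0.22, adjusted p = 0.0110). The glycine-repeat probe of Col5a1 printed above differed by 1.21, close to the 1.33 of the brighter probe. Col5a3 was at 3.38, 3.09 and 3.35 against 2.56, 2.48 and 2.55, a 1.67-fold rise (difference 0.74, SE 0.12, adjusted p = 0.0110). Its glycine-repeat probe differed by 0.44 (SE 0.20). None of the type V genes overlapped between groups.

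**Figure D2:**
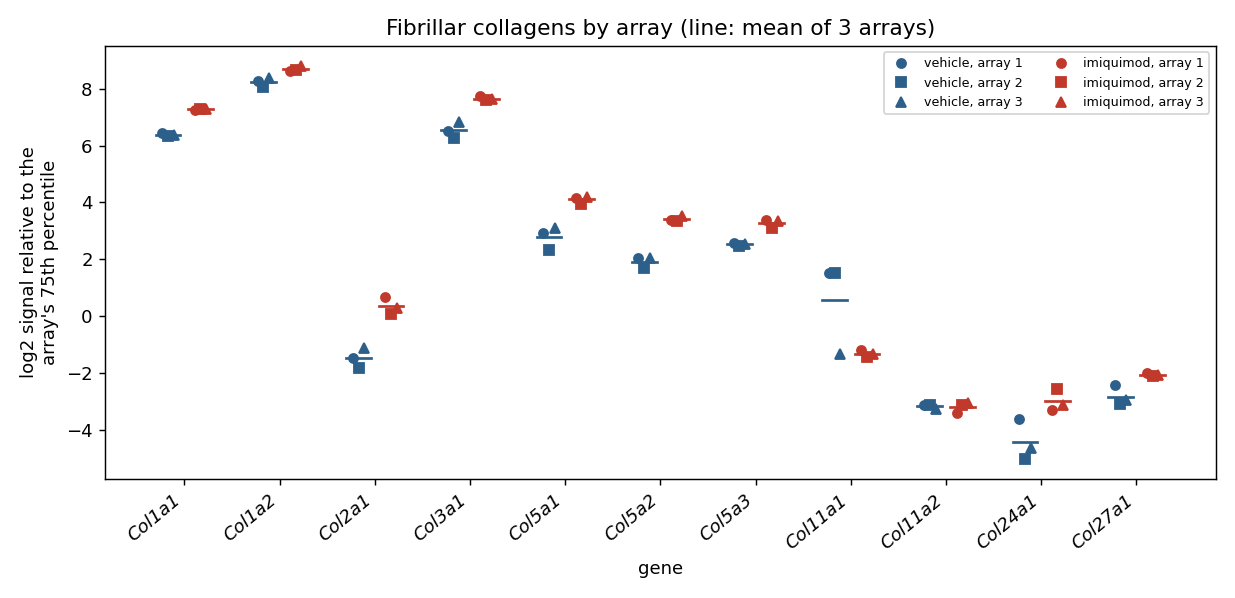
Log2 signal of the 11 fibrillar collagen genes relative to the 75th percentile of each array, with 1 point per array (vehicle in blue, imiquimod in red) and a line at the mean of 3. The imiquimod arrays lie above the vehicle arrays in 9 genes; in Col11a1, vehicle array 3 lies at -1.31, among the imiquimod arrays, and arrays 1 and 2 at 1.53.

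Col24a1 and Col27a1, minor fibrillar collagens of developing skeleton, also rose, from dim signals. Col27a1 differed by 0.78 (SE 0.19, adjusted p = 0.0344), with its 3 probes between 0.78 and 1.17. Col24a1 differed by 1.42 (SE 0.40, adjusted p = 0.0498). Without 1 array the Col24a1 call was lost for each array except vehicle array 1, and that of Col27a1 likewise, with differences of 1.12 to 1.57 and of 0.65 to 0.80 in those cases.

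Col2a1, the main collagen of cartilage, was at 0.67, 0.09 and 0.31 under imiquimod against -1.47, -1.81 and -1.11 under vehicle. The groups did not overlap and the rise was 3.53-fold (difference 1.82, SE 0.23, adjusted p = 0.00577). The size depends on the probe. The value comes from the downstream of 2 overlapping probes, which is printed on 10 spots of the array, while the upstream probe, on 1 spot, differed by 0.37 (SE 0.11). The upstream probe was at -2.91, -2.84 and -2.80 against -3.29, -3.25 and -3.11. The 2 sequences, with their 40 shared bases in capitals, are:
Col2a1 downstream probe: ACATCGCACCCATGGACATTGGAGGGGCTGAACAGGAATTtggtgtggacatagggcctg
Col2a1 upstream probe: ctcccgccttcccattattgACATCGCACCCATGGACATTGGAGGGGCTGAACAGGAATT
They lie on the minus strand of mm9 at chr15:97806485-97806544 and chr15:97806505-97806564. The remaining Col2a1 probe was well above background on 0 arrays. The cartilage markers tested beside Col2a1 did not rise: Sox9 fell by 0.95 (adjusted p = 0.0195), Acan differed by -1.81 (adjusted p = 0.0654) and Comp by -0.41 (adjusted p = 0.314). The Sox9 call was lost without any 1 imiquimod array and without vehicle array 1 (-0.98 to -0.91), and with the slide as a block (-0.93, adjusted p = 0.137), and Acan passed without vehicle array 3 (-2.32, adjusted p = 0.0232). The mean log2 signal of these 3 markers was -2.27 to -1.70 in the imiquimod arrays and -1.21 to -0.62 in the vehicle arrays. Why the probes and markers differ was not tested.

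Col11a1 was at -1.18, -1.42 and -1.31 under imiquimod and at 1.53, 1.53 and -1.31 under vehicle. Vehicle arrays 1 and 2 lay far above the imiquimod arrays, and vehicle array 3 lay among them, so the gene did not pass (difference -1.88, SE 0.78, adjusted p = 0.132). Without vehicle array 3 it passed as lower under imiquimod (difference -2.83, adjusted p = 0.00254). A second, dimmer probe differed by -2.03. Vehicle array 3 was also the lowest vehicle array in the 5 tested keratin and trichohyalin markers of the hair follicle's inner root sheath, with a mean log2 signal of 4.13 against 6.88 and 7.71. In the imiquimod arrays that mean was -3.52 to -1.97. All 5 markers fell, beside 10.5% of all genes called lower, and Krt25 was well above background on 0 imiquimod arrays. The call of the trichohyalin gene Tchh was lost without any 1 imiquimod array and without vehicle array 1, and those of Tchh and Krt27 with the slide as a block (adjusted p = 0.127 and 0.0503). The part of hair follicle content in the Col11a1 values was not tested. Col11a2 differed by -0.04 (SE 0.13, adjusted p = 0.842), from values of -3.40 to -3.06 under imiquimod and -3.26 to -3.10 under vehicle, which overlap.

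The basement membrane collagens did not move as a class. Of the 6 type IV genes, all tested, 0 rose, 2 fell and 4 did not pass in limma, with a median difference of -0.14, beside 10.5% of all genes called lower. By any of the alternative settings at most 1 of them was higher. They form 3 neighbouring pairs in the genome, Col4a1 with Col4a2, Col4a3 with Col4a4 and Col4a5 with Col4a6, and only in the last pair did both genes fall. The difference between pairs was not tested. Chains of Col4a1 and Col4a2 make the network found in nearly all basement membranes. Those of Col4a3 and Col4a4 take part in a network known from kidney and lung, though not as its only chains. Those of Col4a5 and Col4a6 take part in a network of the epidermal basement membrane.

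Col4a6 was at -3.25, -2.43 and -2.36 under imiquimod and at 0.25, -0.06 and 0.82 under vehicle. Every vehicle array lay above every imiquimod array, and the mean was 8.08-fold higher under vehicle (difference -3.01, SE 0.33, adjusted p = 0.00373). Its 2 other probes were dimmer. One was well above background on 0 imiquimod arrays and on all 3 vehicle arrays, with a fitted difference of -2.50 that is partly measured against background, and the other differed by -0.27 (SE 0.13), at -3.57 to -3.28 under imiquimod and -3.25 to -2.99 under vehicle. The probes lie within mm9 chrX:137599990-137601491 on the minus strand, the first of them being the one used.

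Col4a5 had 1 probe, at chrX:138122995-138123054 on the plus strand. It was at -4.86, -4.60 and -4.49 under imiquimod and at -3.39, -3.31 and -3.01 under vehicle. The vehicle arrays were all higher, by 2.67-fold (difference -1.41, SE 0.16, adjusted p = 0.00400). The probe was well above background on 2 of 3 imiquimod arrays, so part of the difference is measured against background, and a filter on all 6 arrays removed the gene.

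Because Col4a5 and Col4a6 fell together, the 250 bases before each start, from RefSeq on GRCm38.p6, are shown, at chrX:141475169-141475418 on the plus strand and chrX:141474077-141474326 on the minus strand. The genes point away from each other, with starts 1343 bases apart. Capitals mark matches, on either strand, to the motifs searched. These were the CCAAT box, the GC box with the letters GGGCGG, and the TATA box with the letters TATAAA, and no matches overlap here.
Col4a5: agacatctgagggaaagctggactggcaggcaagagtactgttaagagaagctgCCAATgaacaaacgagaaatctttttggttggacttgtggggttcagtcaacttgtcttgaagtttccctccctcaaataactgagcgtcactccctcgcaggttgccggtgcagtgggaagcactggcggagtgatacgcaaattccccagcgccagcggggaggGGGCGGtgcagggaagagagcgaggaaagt
Col4a6: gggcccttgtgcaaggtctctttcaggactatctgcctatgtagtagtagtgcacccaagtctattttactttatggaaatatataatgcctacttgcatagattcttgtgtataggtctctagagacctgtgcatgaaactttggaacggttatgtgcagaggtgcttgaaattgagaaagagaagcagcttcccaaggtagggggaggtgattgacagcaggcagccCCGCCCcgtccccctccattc
Each window held 1 GGGCGG, a motif found in 32.7% of 32851 promoter windows of this length and in 57.9% of the 38 windows of collagen genes. Col4a5 also held 1 CCAAT, which 33.8% of all windows hold. TATAAA, in 12.4% of all windows, was in neither. A match is only a run of letters and not a bound site.

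The other 4 type IV genes did not pass. Col4a2 was at 3.06, 3.00 and 2.88 under imiquimod against 2.58, 2.66 and 2.20, without overlap, at a difference of 0.50 (SE 0.15, adjusted p = 0.0631). It passed with normexp background correction, with a variance trend and without vehicle array 2, at adjusted p of 0.0400, 0.0453 and 0.0473. Col4a1 differed by 0.18 (SE 0.14, adjusted p = 0.395). Its second probe, well above background on every array, differed by 0.65 (SE 0.10), at 2.47 to 2.56 against 1.80 to 1.94. With the mean of its probes Col4a1 passed as higher (0.41, adjusted p = 0.0472). Col4a4 differed by 0.02 (SE 0.12, adjusted p = 0.911), but its second, dimmer probe differed by -1.11. Col4a3, well above background on 5 of 6 arrays, ranged from -5.31 to -4.24 under imiquimod and from -6.23 to -3.34 under vehicle.

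**Figure D3:**
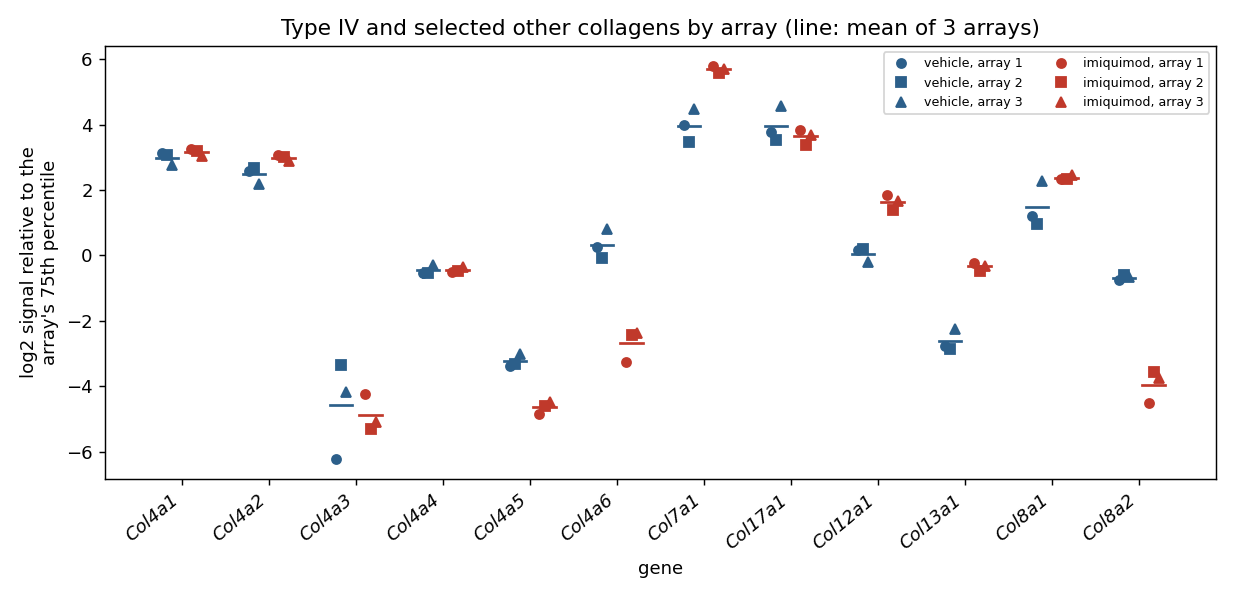
Log2 signal of the 6 type IV genes and of 6 other collagen genes relative to the 75th percentile of each array, with 1 point per array (vehicle in blue, imiquimod in red) and a line at the mean of 3. Col4a5, Col4a6 and Col8a2 lie lower in all imiquimod arrays, Col7a1, Col12a1 and Col13a1 lie higher in all of them, and Col17a1 overlaps between groups.

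Of the 26 genes of other classes, 18 were tested, of which 6 rose, 1 fell and 11 did not pass, with a median difference of 0.59. The risers were Col6a1, Col6a2, Col6a4, Col7a1, Col12a1 and Col13a1, which are 33.3% of the tested genes beside 13.1% of all genes.

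Col7a1 encodes the anchoring fibrils that fasten the epidermal basement membrane to the dermis. It was at 5.81, 5.59 and 5.72 under imiquimod and at 3.98, 3.47 and 4.48 under vehicle. All imiquimod arrays were higher, by 3.31-fold (difference 1.73, SE 0.26, adjusted p = 0.00893). Col17a1, a transmembrane collagen of the hemidesmosomes of basal keratinocytes, did not pass, at 3.85, 3.39 and 3.68 against 3.77, 3.53 and 4.58 (difference -0.32, SE 0.30, adjusted p = 0.462). Beside these, Krt14 and Krt5, keratins of basal keratinocytes, rose by 2.25 and 0.77 (adjusted p = 0.00156 and 0.0123). Of 4 basal keratinocyte markers tested, these 2 rose, beside 13.1% of all genes called higher. Itga6 and Itgb4 did not pass (0.78 and 0.41, adjusted p = 0.05005 and 0.394), though Itga6 passed without vehicle array 3 (0.98, adjusted p = 0.0179). The Krt5 call was lost without imiquimod array 1 or 3 (adjusted p = 0.0532 and 0.0505) and with the slide as a block (0.88, adjusted p = 0.0711). The mean log2 signal of the 4 basal keratinocyte markers was 6.37 to 6.87 in the imiquimod arrays and 5.33 to 5.78 in the vehicle arrays. In whole skin, a change in the number of cells of a type and a change in RNA per cell cannot be told apart.

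Transmembrane Col13a1, a collagen of cell adhesion sites, had the highest difference of the tested collagens. It was at -0.23, -0.46 and -0.32 under imiquimod and at -2.76, -2.86 and -2.24 under vehicle, a 4.87-fold rise without overlap (difference 2.29, SE 0.19, adjusted p = 0.00209). Its second probe was well above background on 1 array. Col23a1, of the same class, differed by 0.48 (SE 0.26, adjusted p = 0.236).

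Col12a1, which coats the surface of type I fibrils, was at 1.85, 1.40 and 1.67 under imiquimod and at 0.16, 0.20 and -0.20 under vehicle. The rise was 3.01-fold without overlap (difference 1.59, SE 0.17, adjusted p = 0.00384), and its second probe differed by 2.10. Col14a1, a relative that also binds fibrils, was at 1.11 to 1.73 under imiquimod and at 1.28 to 1.72 under vehicle. These overlap and the difference was -0.01 (SE 0.21, adjusted p = 0.988). The further fibril-associated genes Col16a1, Col9a2, Col20a1 and Col22a1 did not pass, with differences of -0.48 to 0.28.

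Type VI collagen forms beaded microfibrils around cells. Col6a1, Col6a2 and Col6a3, its main chains, differed by 0.71, 0.90 and 0.84, with SE of 0.20, 0.17 and 0.25. Col6a2 was at 2.87, 2.92 and 3.06 against 2.37, 1.79 and 1.99 (adjusted p = 0.0173), and Col6a1 passed narrowly (adjusted p = 0.0497), while Col6a3 did not pass (adjusted p = 0.0594). In all 3 the imiquimod arrays lay above the vehicle arrays. The Col6a1 call was lost without any 1 array except vehicle array 2, and that of Col6a2 without any 1 imiquimod array, whereas Col6a3 passed without vehicle array 2 (0.57, adjusted p = 0.0387). Col6a4, a dim relative of Col6a3, differed by 0.84 (SE 0.18, adjusted p = 0.0238). Its other probe differed by -0.54, and the mean of both probes by 0.15 (adjusted p = 0.422), so its direction is not settled. The Col6a4 call was also lost without any 1 imiquimod array and without vehicle array 1.

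The short-chain collagens Col8a1 and Col8a2, whose chains form hexagonal networks, differed in opposite directions. Col8a2 was at -4.51, -3.58 and -3.76 under imiquimod and at -0.76, -0.60 and -0.66 under vehicle. The vehicle arrays were all higher, by 9.67-fold (difference -3.27, SE 0.25, adjusted p = 0.00192), and this was the lowest difference of the tested collagens. Its single probe, at chr4:125991441-125991500 on the plus strand of mm9, was well above background on 2 of 3 imiquimod arrays, so the size rests partly on background. Col8a1 was at 2.35, 2.33 and 2.45 against 1.21, 0.97 and 2.29, a difference of 0.89 that did not pass (SE 0.35, adjusted p = 0.115). Vehicle array 3 lay close to the imiquimod arrays, and without it Col8a1 passed (1.29, adjusted p = 0.00482).

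The multiplexins, which bridge basement membranes and the matrix below, did not pass. Col18a1, the source of the fragment endostatin, was at 5.10, 4.58 and 5.01 against 3.86, 4.51 and 3.34 (difference 0.99, SE 0.32, adjusted p = 0.0716), and passed without vehicle array 2 (1.30, adjusted p = 0.0198). Col15a1 differed by -0.36 (SE 0.16, adjusted p = 0.147).

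Several probes were tested for 22 collagen genes, and in 20 of them all probes had the same sign. The exceptions were Col4a4 and Col6a4. None of the collagen probes was saturated on any array, and 31 of the 35 probes used were well above background on all 6 arrays.

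**Figure D4:**
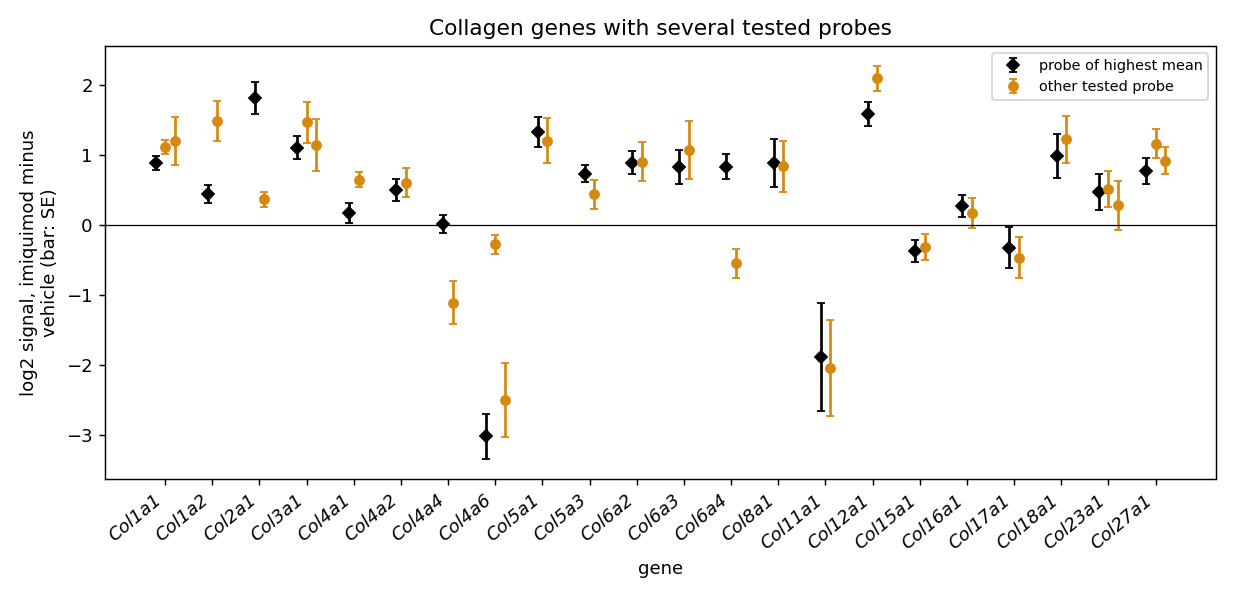
Fitted difference in log2 signal, imiquimod minus vehicle, for each tested probe of the 22 collagen genes with several, with bars of 1 SE; the black diamond is the probe of highest mean, used for the gene, and the orange points are the others. The probes of Col1a1, Col3a1, Col5a1 and Col27a1 lie close together, while those of Col2a1, Col4a6, Col1a2, Col4a4 and Col6a4 lie apart.

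The slide divides the groups unevenly. Slide 1 held the 3 vehicle arrays and imiquimod array 1, and slide 2 held imiquimod arrays 2 and 3. A block for slide therefore makes each difference that of imiquimod array 1 from the 3 vehicle arrays. Imiquimod arrays 2 and 3 enter that fit only through the estimate of spread. With slide as a block, 8 of the 18 called collagens passed: Col1a1 (0.87, adjusted p = 0.0451), Col2a1 (2.14, adjusted p = 0.0312), Col5a2 (1.44, adjusted p = 0.0341), Col12a1 (1.80, adjusted p = 0.0279), Col13a1 (2.39, adjusted p = 0.0232), Col4a5 (-1.63, adjusted p = 0.0260), Col4a6 (-3.58, adjusted p = 0.0186) and Col8a2 (-3.84, adjusted p = 0.00562). The calls of Col3a1 (1.20, adjusted p = 0.0666), Col5a1 (1.39, adjusted p = 0.0847), Col5a3 (0.85, adjusted p = 0.0623) and Col7a1 (1.83, adjusted p = 0.0696) were lost. Lost as well were those of Col1a2, Col24a1, Col27a1, Col6a1, Col6a2 and Col6a4. None of the 18 changed direction. Over all genes, the slide block called 543 higher and 525 lower, instead of 2341 and 1876. The loss of calls was therefore not confined to collagens. Within slide 1, where 1 imiquimod array met 3 vehicle arrays, the differences are the same and 0 collagens passed in limma. That fit called 8 of all genes, and its lone imiquimod array is assumed to vary like the vehicle arrays.

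The genes that make and modify collagen were examined next. Of 29 tested enzymes and chaperones of collagen synthesis, 13 rose, 2 fell and 14 did not pass, with a median difference of 0.66, beside 23.5% of all genes called. Lox, a lysyl oxidase that cross-links collagen and elastin, rose by 1.98 (SE 0.25, adjusted p = 0.00544). Lox was at 0.97, 0.71 and 0.88 under imiquimod against -0.96, -1.65 and -0.76, with no overlap. P4hb, a subunit of the prolyl hydroxylase that stabilises the helix, rose by 0.92 (SE 0.11, adjusted p = 0.00447). Sparc, a collagen-binding glycoprotein, rose by 0.84 (SE 0.10, adjusted p = 0.00490), and Loxl4, a dim lysyl oxidase gene, by 1.01 (SE 0.11, adjusted p = 0.00370). P4ha3, another prolyl hydroxylase subunit, was well above background on 0 vehicle arrays and was at least 1.68-fold higher under imiquimod (adjusted p = 0.0144), against the lowest signal above background on each array. Plod2, a lysyl hydroxylase, and Pcolce2, an enhancer of procollagen processing, fell. The difference was -1.09 for Plod2 (SE 0.14, adjusted p = 0.00571) and -1.48 for Pcolce2 (SE 0.41, adjusted p = 0.0473). Serpinh1, the collagen chaperone, did not pass (0.66, SE 0.22, adjusted p = 0.0746). Calls were lost without any 1 array except vehicle array 2 for Pcolce2 (-1.61 to -1.18), and without imiquimod array 1 or 2 or vehicle array 1 for P4ha3. The slide block ended those of Sparc, P4ha3, Plod2 and Pcolce2 and kept only those of Lox, P4hb and Loxl4. It also ended the list's other calls, those of Bmp1, Fkbp10, P3h1, Loxl1, Loxl2, Colgalt1, P4ha2 and Ppib, at adjusted p of 0.0524 to 0.239. The calls of P3h1, Loxl1, Loxl2, Colgalt1, P4ha2 and Ppib were lost as well without imiquimod array 1 and without imiquimod array 3.

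Of 10 tested enzymes and receptors of collagen degradation, 8 rose, 1 fell and 1 did not pass, with a median difference of 1.92, beside 13.1% of all genes called higher and 10.5% called lower. Ctsk, a collagenolytic cathepsin, was at 3.06, 3.29 and 3.16 under imiquimod against 1.67, 1.45 and 1.71, a 2.95-fold rise (SE 0.12 on the log2 scale, adjusted p = 0.00199). Mmp9, a gelatinase, rose by 2.80 (SE 0.26, adjusted p = 0.00268), Mmp14, a membrane collagenase, by 1.46 (SE 0.14, adjusted p = 0.00271), and Mmp3, stromelysin, by 2.28 (SE 0.25, adjusted p = 0.00390). Mmp8, the neutrophil collagenase, had a difference of 5.48 (SE 0.66, adjusted p = 0.00479) but was well above background on 1 of 3 vehicle arrays. Fap, a fibroblast protease, fell narrowly, at -0.70 (SE 0.20, adjusted p = 0.0499). Mmp13, an interstitial collagenase, ranged from -7.60 to -2.23 under vehicle and from -1.59 to 0.17 under imiquimod, and did not pass (adjusted p = 0.0677). Without vehicle array 3 Mmp13 passed (5.67, adjusted p = 0.0119), and Fap was lost without any 1 array except imiquimod array 3 (-0.83 to -0.59) and with the slide block. The Mmp2 call was lost without imiquimod array 1 or 3 or vehicle array 1. With the slide block, those of Mmp2 and Mrc2 were lost (adjusted p = 0.0991 and 0.0716). That of Mmp10 was lost without vehicle array 1 (adjusted p = 0.0660). Mmp10 was well above background on 0 vehicle arrays, and was at least 6.13-fold higher under imiquimod, against the lowest signal above background on each array.

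Genes of collagen-binding matrix proteins moved both ways: of 16 tested, 4 rose, 2 fell and 10 did not pass, with a median of 0.16, beside 23.5% of all genes called in either direction. Bgn, Lum, Postn and Thbs2 rose, Bgn, the proteoglycan biglycan, by 0.97 (SE 0.10, adjusted p = 0.00349). Prelp and Fmod, leucine-rich proteoglycans of fibrils, fell by 0.72 and 1.08 (adjusted p = 0.0203 and 0.0476). Dcn, decorin, differed by 0.01 (SE 0.26, adjusted p = 0.979). Of the 6 calls, only that of Bgn held without each array in turn and with the slide block; those of Lum, Postn, Thbs2, Prelp and Fmod were each lost without 3 or more of the arrays, vehicle array 1 and imiquimod arrays 2 and 3 among them, and with the slide block. Of 7 tested collagen receptors, 2 rose, 1 fell and 4 did not pass, beside the same 23.5%. Lair1, an inhibitory collagen receptor of leukocytes, rose by 2.51 (SE 0.36, adjusted p = 0.00810), Itga11, a fibroblast integrin chain, by 0.84 (adjusted p = 0.0238), and Ddr1, an epithelial collagen receptor kinase, fell by 0.46 (adjusted p = 0.0434). Of 13 Tgfb ligands, receptors and targets, Tgfb1 (1.16, SE 0.12, adjusted p = 0.00322) and Tgfb3 (0.92, SE 0.19, adjusted p = 0.0219) rose, 0 fell and 11 did not pass, a share called that lies below the 23.5% of all genes. Calls were lost without any 1 array for Ddr1, without imiquimod array 2 or 3 or vehicle array 1 for Itga11, and without any 1 imiquimod array or vehicle array 1 for Tgfb3. With the slide block, Tgfb1 alone of these 5 passed. Over all 5 lists, 29 of 75 tested genes rose and 6 fell, beside 13.1% and 10.5% of all genes. With the slide block 11 rose and 0 fell, beside 543 and 525 of all 17928 genes.

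**Figure D5:**
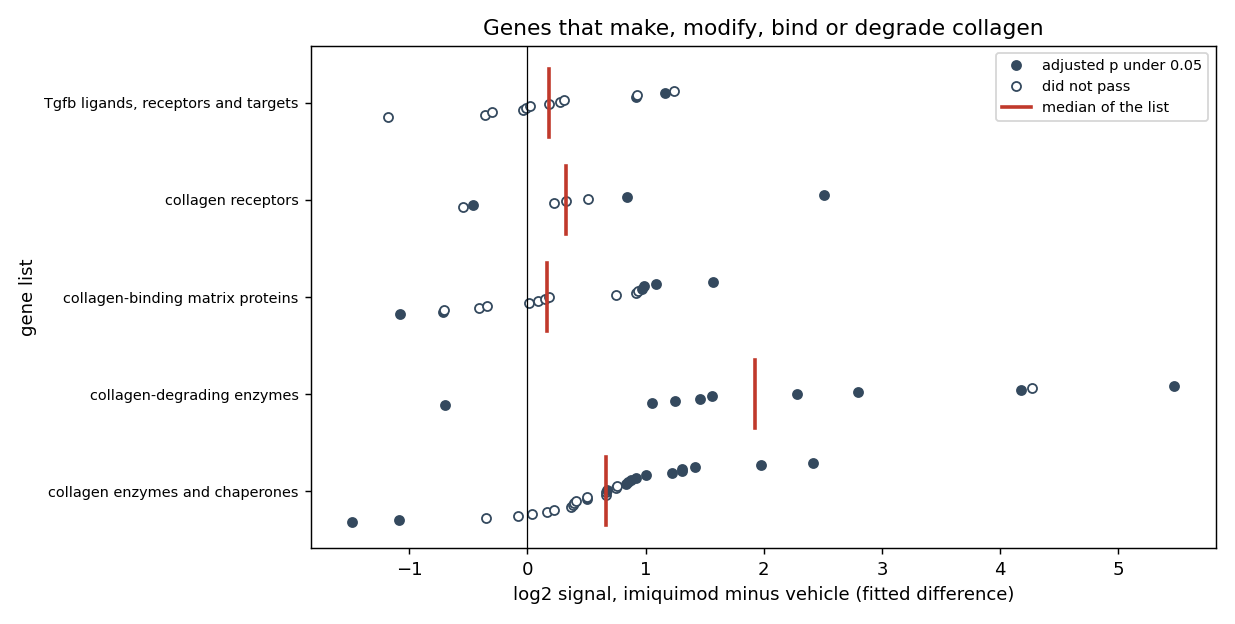
Fitted difference in log2 signal, imiquimod minus vehicle, of each tested gene in 5 lists of genes that make, degrade, bind or sense collagen; filled points passed at an adjusted p under 0.05 and the red line is the median of the list. The median is 1.92 for degrading enzymes, 0.66 for enzymes and chaperones of synthesis, and 0.16 to 0.32 for the other 3 lists.

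Markers of fibroblasts, leukocytes and endothelium were measured beside these genes. Of 8 fibroblast markers, Twist2, Fbln1, Lum and Pdgfrb rose and Fap fell, while Pdgfra, Dpt and Thy1 did not pass, at differences of 0.00 to 0.15. The mean log2 signal of the list was 2.45 to 2.71 in the imiquimod arrays and 1.72 to 2.35 in the vehicle arrays. The 5 leukocyte markers stood at 3.62 to 4.01 against 1.17 to 2.65, with 4 rising, and the 5 endothelial markers at 0.21 to 0.37 against -1.04 to -0.36, with 3 rising, beside 13.1% of all genes called higher. The calls of Lum, Pdgfrb, Pecam1, Ptprc, Itgam and Lyz2 were lost without any 1 imiquimod array and without vehicle array 1, that of Fbln1 without vehicle array 1, and Fap as given above. With the slide as a block every call in these 3 lists was lost, at adjusted p of 0.0534 (Emcn) to 0.204 (Lyz2), those of Twist2, Adgre1 and Cdh5 included (adjusted p = 0.0816, 0.107 and 0.0715). Cd68 and Kdr passed without vehicle array 3. Each marker of these 3 lists was well above background on all 6 arrays. The part of cell composition in the collagen values was not tested.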

How the data were processed

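Total RNA of 6 skin samples was amplified, labelled with Cy3 and hybridised to Agilent mouse arrays, per the labels' protocols. Each deposited scanner file holds spot intensity on a linear scale, as the processed signal used here and as mean and background signals used for normexp, made with Agilent Feature Extraction 10.7.3.1 per the file headers (9.1 per the submitters' processing notes). The value table that the authors deposited is on a log2 scale with nearly equal quantiles in all columns; its normalization is not given in the sources used here.

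Arrays were grouped by the title of the value table column each matched, which is also the treatment in the file name, and not by the sample they were filed under. Control spots and 322 spots flagged as outliers on any array were left out, and repeated spots of 1 probe were averaged on the log2 scale. Genes were represented by the tested probe of highest mean and named by RefSeq accession (27660 probes; 73 of 86 collagen probes, all with the file's symbol) or else as in the file. The comparison used lmFit and eBayes of limma 3.58.1 (R 4.3.3), two-sided and with no covariates, with Benjamini-Hochberg adjustment over all genes, and was tested on simulated data. Per array, 61.2% to 67.4% of probes were detected. Precision is limited by the number of arrays.

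The members and all gene lists were chosen with earlier results of these data known. The rule for named genes allowed every collagen, of each other list the 4 of smallest p, and in full those called where 5 or fewer; others named (Serpinh1, P4ha3, Mmp8, Mmp13, Dcn, Acan, Comp, S100a8, S100a9, Cd68, Kdr, Dpt, Pdgfra and Thy1 among them) were chosen after their values were seen. Adipocyte, skeletal muscle, Schwann cell and pericyte markers were also measured. Of these, 1 of 4, 0 of 4, 1 of 3 and 1 of 4 fell, beside 10.5% of all genes called lower. In addition 1 pericyte marker rose, beside 13.1% of all genes called higher. The alternatives were other normalization, background correction, filters, probe summary and variance models, blocks for slide and replicate number, leaving out each array, and the value table.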

Additional observations from a re-analysis of the deposited data

How the results depend on the processing

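The values below are log2 differences and numbers of genes that passed in limma. With slide as a block, 3 fibrillar genes rose instead of 9, 2 other collagens instead of 6, 11 pathway genes rose and 0 fell instead of 29 and 6 of 75 tested, and over all genes 543 rose and 525 fell instead of 2341 and 1876; the type IV median turned to 0.12. Within slide 1 that median was 0.12 too, 0 fibrillar, type IV, other collagen and pathway genes passed in either direction, and 7 genes rose and 1 fell over all. Arrays of the same replicate number had correlations of deviations from their group means of -0.086, 0.066 and 0.086. With 3 arrays a group, and imiquimod arrays 2 and 3 on another slide, this does not settle whether replicate numbers pair samples. With the replicate block 1170 genes rose and 1053 fell, and 1 pathway gene fell. The filter on all 6 arrays left 1 type IV gene and 0 other collagens lower, with a type IV median of 0.099 and a median of 0.77 for other classes. With no filter the medians were 0.38 for other classes and 0.081 for all genes, and 2 pathway genes fell. Normexp gave medians of 0.73 for fibrillar and 0.41 for other classes, and 1 type IV gene higher. The mean of a gene's probes gave 1.07, 0.33 and a type IV median of -0.42, again with 1 type IV gene higher, as did the variance trend with 1. Leaving out 1 array at a time, 6 to 8 fibrillar genes rose and 0 to 1 fell (Col11a1, without vehicle array 3), 0 to 1 type IV genes rose and 2 fell, and 3 to 8 other collagens rose and 1 fell. Medians then were 0.86 to 0.97 (fibrillar), -0.57 to 0.098 (type IV; 0.098 without vehicle array 2) and 0.43 to 0.71 (other), 17 to 35 pathway genes rose and 1 to 6 fell, and 948 to 2527 genes rose and 752 to 2238 fell. The causes were not tested. Of the 18 called collagens, 0 changed sign in any alternative that tested them; the filter on all 6 arrays tested 16. The value table and quantile normalization each kept 16 of the 18 calls, losing Col1a2 and Col6a1. Dim signals limit Col4a3, Col4a5, Col8a2 and Col9a2, which were not well above background on every array.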
